A study of Mus musculus with 20 samples.

Results

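The 4 bone marrow arrays of a set of 20 were examined: 2 hybridised with RNA recovered by an IRP2 pulldown and 2 with RNA from control reactions, taken by the titles of the arrays. Recombinant iron regulatory protein 2 (IRP2), made in E. coli with a His tag, was mixed with 50 µg of total RNA, and the protein with its bound RNA was recovered with a monoclonal antibody against the tag. The controls received the same RNA and antibody without IRP2. The RNA came from the marrow of 6 C57BL6/J mice of both sexes, 8 to 10 weeks old and fed a diet of normal iron content, and was pooled. About 120 ng of recovered RNA was amplified in 2 cycles and hybridised to the Affymetrix Mouse Genome 430 2.0 array. The other 16 arrays hold the same reactions for brain (the same diet) and for duodenum, liver and spleen of mice kept on an iron-poor diet for 21 days. The labels describe 1 pool of mice, so the replicates repeat the pulldown and array, not the animals, and p-values measure that spread. Bone marrow and the iron-poor tissues differ in diet as well as in tissue, and these cannot be told apart.

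IRP1 and IRP2 bind iron-responsive elements (IREs), short hairpins in the untranslated ends of mRNAs of iron metabolism. When iron is scarce, binding near the start of an mRNA blocks its translation, as for the ferritins and the erythroid heme enzyme, and binding behind the coding part protects the transferrin receptor mRNA from decay. Bone marrow is where red cells form, and their precursors take up iron through the transferrin receptor for heme. A pulldown with purified protein reports which RNAs of the extract the protein can hold in a tube, and not which it held in the cells.

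Values are log2 levels per probe set, the unit by which this array reads an mRNA. Of 45101 probe sets, 25354 (56.2%) were kept: those that are no Affymetrix control and reach the median of their array on at least 1 of the 4 arrays. They name 13052 genes through 21193 probe sets with a single gene symbol. A ratio is the log2 level with IRP2 minus that of the control of the same replicate number. Replicate 1 gives pair 1 and replicate 2 gives pair 2.

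Control replicate 1 stood apart from the other 3 arrays. Its rank correlation with them was 0.901 to 0.907, whereas the other 3 correlated with each other at 0.926 to 0.958. With the 4 spleen arrays, control replicate 1 correlated at 0.900 to 0.907, as closely as with its own tissue, while the other 3 bone marrow arrays reached 0.776 to 0.801. It also had the highest mean correlation with brain (0.674), duodenum (0.728) and liver (0.671), where the other 3 reached 0.636, 0.7 and 0.663. It was above all 3 others in 12300 probe sets (48.5%), and at least 2-fold above all of them in 855 (3.37%) against 39 at least 2-fold below. Whether its label is right was not tested. Every pair 1 ratio, and every mean over both pairs, has this array as a denominator, so both pairs are given throughout.

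**Figure D1:**
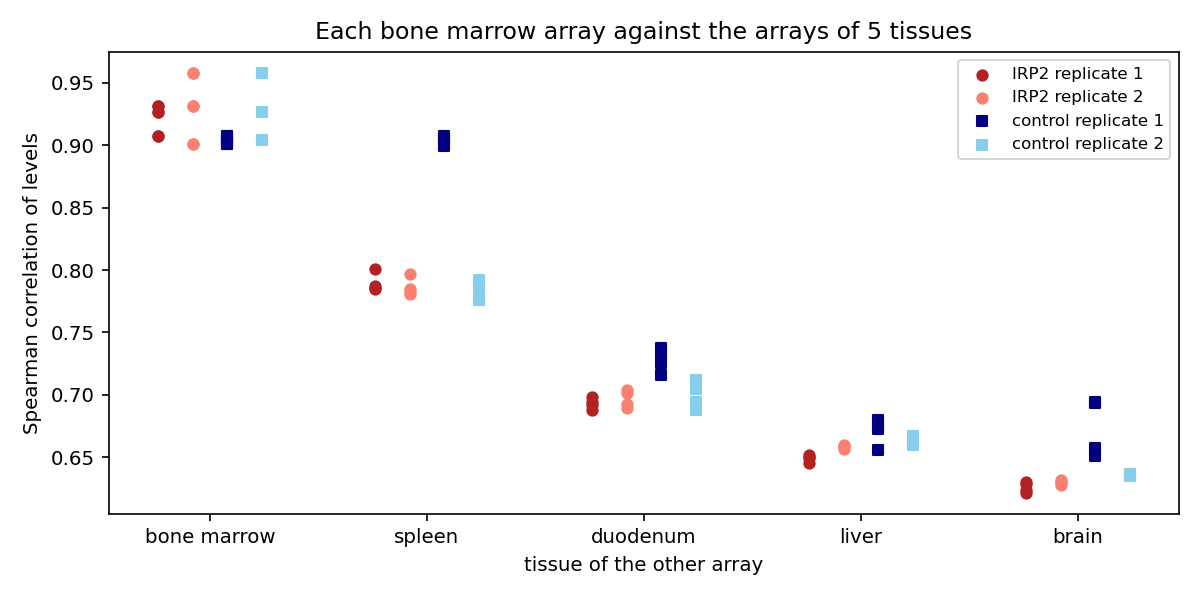
Spearman correlation over the kept probe sets (vertical axis) of each bone marrow array with the arrays of each tissue (horizontal axis), 1 point per pair of arrays. Control replicate 1 (navy squares) correlates with spleen at 0.900 to 0.907, above the 0.776 to 0.801 of the other 3 arrays.

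The median level of each list of marrow cell markers was above the array median on all 4 arrays. Measured genes had to reach that array median on at least 1 array, so the list medians leave out genes below it throughout. Only probe sets with a single gene symbol were counted. By these, such genes were Hba-a1, an alpha globin gene, and the T-cell genes Cd3g and Cd8b1. The beta globin genes Hbb-b1 and Hbb-bt had no probe set of that kind, so the level of globin mRNA cannot be read from this list. Cd34, a stem cell marker, was below it on all arrays but control replicate 1. Ibsp, a bone marker, was below it on replicate 1 of both reactions. In such bulk RNA a change in the share of a cell type and in the RNA per cell cannot be told apart. The markers were largely of blood-forming cells, and most were brightest on control replicate 1. Ltf, the lactoferrin of neutrophil granules, measured 12.52 on control replicate 1 against 10.99, 10.46 and 10.34 on the others. Over 9 neutrophil markers control replicate 1 exceeded control replicate 2 by a median of 1.59 log2 units, 8 of them by at least 2-fold, where 13.2% of all probe sets did so and 1.68% were at least 2-fold lower. The median was 1.42 for 5 granulocyte precursor markers such as Mpo and Prtn3, and 1.39 for 3 plasma cell markers, among them Jchain, the joining chain of secreted antibodies. Of 45 mRNAs of cytosolic ribosomal proteins, 41 were highest on control replicate 1 (median difference between the controls 1.20), and so were all 6 measured housekeeping genes.

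Other cell types showed a smaller gap or none. The levels of control replicate 1 were also more spread, with an SD of 2.13 against 1.86 to 1.93 on the other arrays. The lists differed in brightness as well. On control replicate 2 the median level was 10.34 for neutrophil, 9.84 for megakaryocyte, 7.61 for T-cell and 7.18 for stroma markers. Whether the gaps follow level was not tested. The 6 T-cell markers had a median difference of -0.10 between the controls, the 8 markers of red pulp macrophages, a spleen cell type, 0.18, and the 4 of megakaryocytes, the makers of platelets, 0.02. Of the 5 stroma and bone markers 4 were lower on control replicate 1 than on control replicate 2, with a median difference of -0.43. Col1a1, the collagen of bone, measured 7.92 and 8.99 on them, and Cxcl12, the chemokine that holds stem cells in the marrow, 8.11 and 8.09. Of 4 markers of duodenal epithelium 0 were kept. The liver markers ran over the 4 arrays at 5.22 to 6.18 for Alb, 5.95 to 6.79 for Apoa1 and 6.55 to 7.03 for Ttr. The pancreas enzymes Prss2 and Cela1 were higher, at 9.12 to 10.32 and 8.46 to 9.31. Mature B cells, abundant in spleen, had a median difference of 0.59 over 6 markers, under the 0.88 of 7 B-cell precursor markers. The part of this array's difference in the ratios of pair 1 was not tested.

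**Figure D2:**
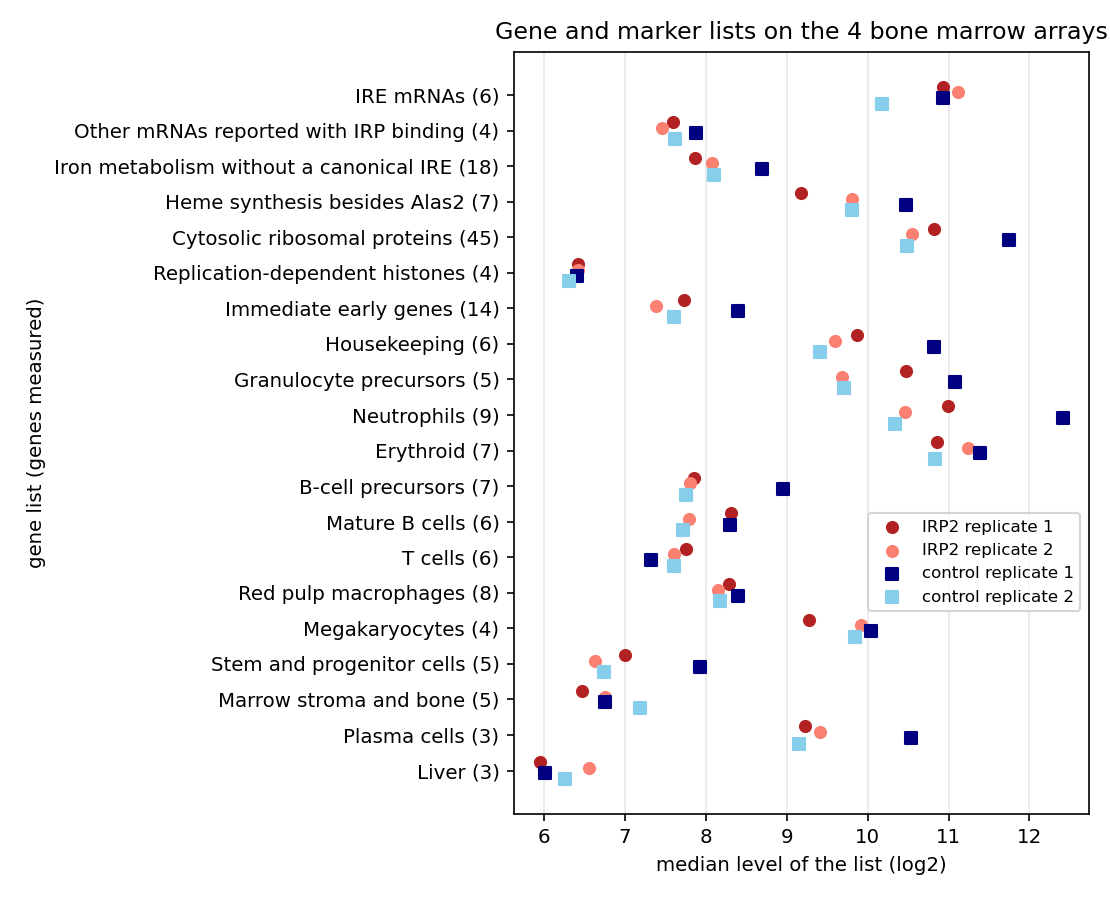
Median log2 level (horizontal axis) of each gene list with at least 3 measured genes (vertical axis, number measured in brackets) on the 4 bone marrow arrays, with points of a list offset vertically. Control replicate 1 (navy squares) is to the right of the others for neutrophil, ribosomal and plasma cell lists and not for T cells.

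No probe set passed the test for a difference between IRP2 and control in bone marrow. The limma fit over all 20 arrays, with replicate number as a block and a precision weight per tissue, called 0 probe sets higher and 0 lower at an adjusted p under 0.05 (0% of 25354 in each direction). Without adjustment 211 were higher and 736 lower at p under 0.05, and its smallest adjusted p was 0.17. Together the 211 and 736 were a smaller share of the 25354 than the 0.05 that this threshold passes where nothing differs. The weight of bone marrow was 0.217, against 1.271 to 1.587 in the other tissues, because its pairs differed more from each other. The ratios had an SD over probe sets of 0.59 in pair 1 and 0.313 in pair 2, where the pairs of other tissues had 0.207 to 0.274. Across the 25354 probe sets the ratios of pair 1 and pair 2 correlated at 0.023, a value over genes that share 4 arrays. In the other tissues that correlation was 0.178 to 0.383. Values below are therefore descriptions of 2 pairs, with the standard error (SE) and adjusted p of this fit where useful.

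More was called when all tissues were given equal weight, or when the other tissues were left out. On the 4 bone marrow arrays alone, with the block, it called 5 higher (0.0197%) and 0 lower. These were the Tfrc probe sets 1422966_a_at and 1422967_a_at, Cxcl16 1449195_s_at, and 1418364_a_at and 1422302_s_at, to which the annotation gives no single gene. With equal weights for all tissues it called 92 higher (0.363%) and 78 lower (0.308%). Equal weights give bone marrow the spread shared by all tissues, which is too small for it because its pairs differed more. The 92 had median ratios of 0.92 and 0.88 in pairs 1 and 2, and the 78 had -1.05 and -0.70.

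Large ratios in both pairs were nearly all on the IRP2 side. In 17 probe sets (0.0671%) both pairs were at least 2-fold higher with IRP2, and in 1 (0.00394%), Eif2b5, both were at least 2-fold lower. The 10 of these 17 with a single symbol named 9 genes: Tfrc (2 probe sets), Cxcl16, Elf2, Lrpap1, Fth1, Ralgapa1, Zfat, Hspa4l and Pml. The filter asks for the array median (5.47 to 5.55) on only 1 array. Tfrc 1422967_a_at, Cxcl16 1449195_s_at, Zfat 1443774_at, Pml and 1441366_at reached it only with IRP2, and Eif2b5 only in the controls. Such probe sets were kept through the side where they were high. Single pairs looked different. Pair 1 had 232 probe sets at least 2-fold higher and 2380 at least 2-fold lower (9.39%), while pair 2 had 113 and 103. With quantile normalisation within the tissue pair 1 had 389 and 1158, so most of its large ratios were on the control side under either scale.

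**Figure D3:**
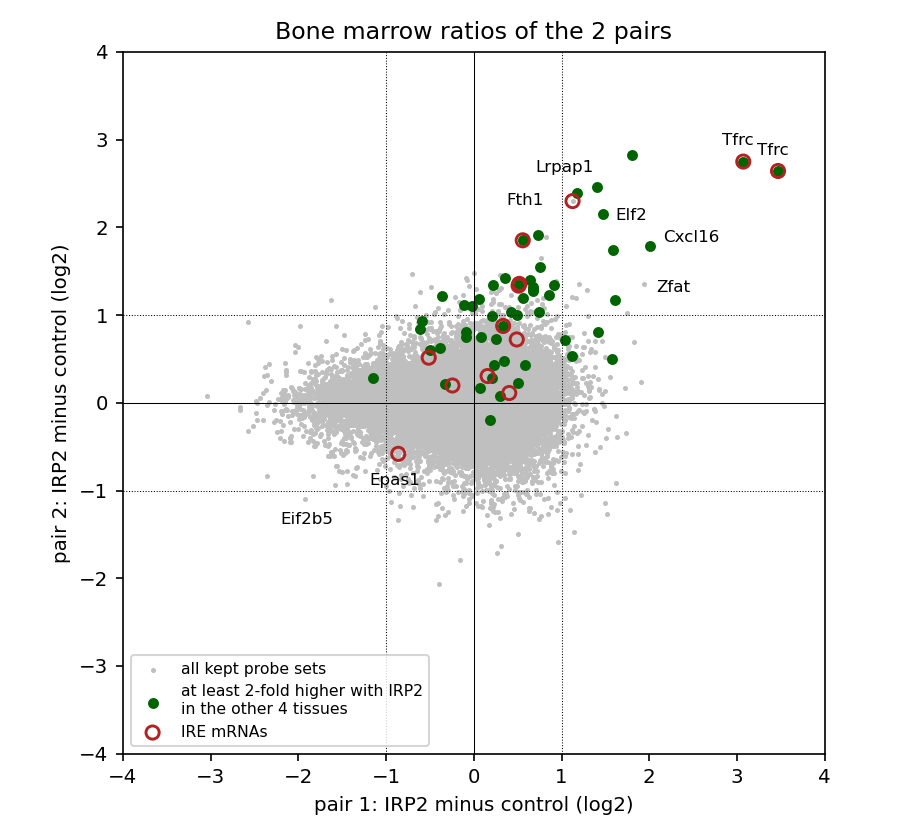
Log2 ratio of IRP2 to control in pair 1 (horizontal) and pair 2 (vertical) for 25354 probe sets (grey), with probe sets at least 2-fold higher in the other 4 tissues (green) and IRE mRNAs (red rings). Dotted lines mark 2-fold. The cloud stretches left in pair 1, and 17 probe sets lie in the upper right corner, Tfrc farthest out.

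Among the IRE mRNAs, Tfrc, the transferrin receptor that brings iron into red cell precursors, had the largest ratio. Probe set 1422966_a_at measured 10.91 and 10.21 with IRP2 (replicates 1 and 2) and 7.45 and 7.57 in the controls. Its ratios were 3.47 and 2.64, or 11.1-fold and 6.24-fold, with a mean of 3.05 ± 0.60 (SE, n = 2 pairs) and an adjusted p of 0.197 in the limma fit. The IRP2 arrays lay far above both controls, whose levels differed little, control replicate 1 included. Probe set 1422967_a_at read 7.60 and 7.53 against 4.53 and 4.78, a mean ratio of 2.91 ± 0.98 (SE, limma adjusted p = 1). Its control mean of 4.65 was among the dimmest 10% of the kept probe sets (under 5.46). The remaining Tfrc probe set, 1452661_at, was the brightest of them on every array, at 12.87 and 12.94 against 12.36 and 11.60. There the ratios were 0.51 and 1.34, against a mean of 2.14 ± 0.07 (SE, 8 pairs) in the other 4 tissues. With quantile normalisation within the tissue the bone marrow ratios of 1452661_at were 1.10 and 1.05.

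Ferritin and heme synthesis followed. Fth1, the ferritin heavy chain that oxidises and stores iron, measured 12.78 and 12.71 with IRP2 on probe set 1448771_a_at and 11.65 and 10.42 in the controls. The IRP2 arrays matched closely and the controls lay 1.13 and 2.30 below them, for a mean ratio of 1.71 ± 0.35 (SE, n = 2 pairs, limma adjusted p = 0.218). The brighter Fth1 probe set 1427021_s_at had ratios of 0.49 and 0.72. Alas2, which catalyses the committed step of heme production in developing red cells, measured 11.91 and 12.19 with IRP2 and 11.39 and 10.83 without. Its arrays did not overlap between the reactions, and its ratios of 0.52 and 1.36 (mean 0.94 ± 0.34 SE, limma adjusted p = 1) were below the 1.67 of the other tissues. That mean was made of 2.31 in brain, 2.13 in liver, 2.07 in spleen and 0.15 in duodenum, so both bone marrow ratios were above that of duodenum.

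The iron transporters differed between probe sets of the same gene. Slc11a2, which moves ferrous iron out of the endosome into the red cell precursor, had ratios of 0.56 and 1.85 on probe set 1452078_a_at, from levels of 8.89 and 9.56 with IRP2 and 8.33 and 7.71 without. Its other 3 probe sets lay between -0.24 and 0.40 in both pairs. Slc40a1, ferroportin, the only known iron exporter, had 0.33 and 0.88 on probe set 1448566_at, with all IRP2 levels (8.10 and 8.06) above both controls (7.77 and 7.18). On the brighter 1417061_at its ratios were -0.51 and 0.51, and the control of replicate 1 was the highest of the 4 arrays.

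Epas1, a hypoxia-inducible transcription factor whose mRNA carries an IRE near its start, was the only one of them with both pairs below 0. It measured 6.14 and 6.85 with IRP2 and 7.00 and 7.43 in the controls, so both IRP2 arrays were below both controls, as in 12% of all probe sets. The ratios were -0.86 and -0.58, with a mean of -0.72 ± 0.37 (SE, n = 2 pairs, limma adjusted p = 1). In the other tissues the mean ratio was 0.75, with an adjusted p of 7.17e-08 in the same fit.

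Taking the brightest probe set of each gene, 6 of 8 listed IRE mRNAs were measured, and none was called. In 4 of them both pairs were above 0 and in 1 both were below, where 23.5% of all probe sets had both pairs above 0 and 23.5% both below. Both IRP2 arrays were above both controls in 4 of 6, against 13.4% of all probe sets. The median ratios were 0.50 and 1.03 in pairs 1 and 2, beside -0.10 and 0.05 over all. With quantile normalisation they were 0.98 and 0.82, beside 0.05 and 0.00 over all, so which pair had the larger median depended on the scale.

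**Figure D4:**
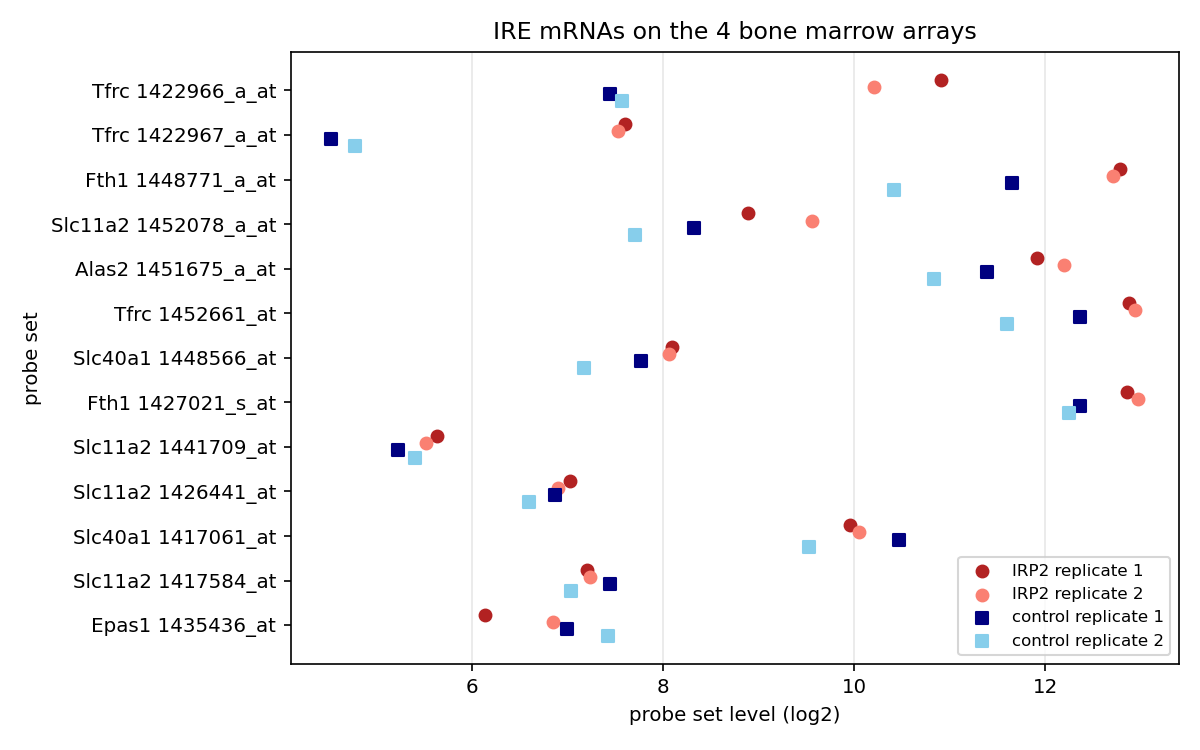
Log2 level (horizontal axis) on the 4 bone marrow arrays of each probe set of the IRE mRNAs (vertical axis, ordered by mean ratio), with IRP2 as circles and controls as squares offset vertically. The first 2 Tfrc probe sets show the widest gaps between IRP2 and control, and Epas1 at the bottom has both IRP2 arrays below the controls.

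Several mRNAs outside the classical IRE list had ratios of the same size. Elf2, an ETS family transcription factor, measured 8.33 and 9.04 with IRP2 and 6.86 and 6.89 without (ratios 1.47 and 2.15, mean 1.81 ± 0.33 SE, limma adjusted p = 0.184). Its controls agreed closely, and 2 other Elf2 probe sets had ratios between -0.65 and 0.11. Cxcl16, a membrane-bound chemokine that also acts as a scavenger receptor, measured 6.50 and 6.91 against 4.49 and 5.12 on probe set 1449195_s_at (mean 1.90 ± 0.36 SE, limma adjusted p = 0.197). The control mean of that probe set, 4.80, was likewise in the dimmest 10%. Its second probe set, 1418718_at, gave 7.53 and 7.52 against 7.35 and 7.72, which overlap.

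Lrpap1, which escorts LDL receptor relatives through the endoplasmic reticulum, measured 7.20 and 7.37 on 1452148_at with IRP2 and 6.02 and 4.98 without, a mean ratio of 1.78 ± 0.35 (SE, limma adjusted p = 0.197). Of its 3 other probe sets, 1426697_a_at had 1.03 and 0.71, and the brightest, 1436609_a_at, had -0.37 and 0.10. Ralgapa1, a subunit of the complex that switches off Ral GTPases, measured 7.15 and 7.23 against 5.57 and 5.49 on 1458410_at. Both pairs were about equal there (1.58 and 1.75), and its second probe set had -0.78 and 0.09. Hspa4l, a relative of the Hsp70 chaperones, was even in both pairs on 1439093_at (1.20 and 1.36) and had 4 other probe sets between -1.46 and 0.46.

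For Elf2, Cxcl16, Lrpap1, Ralgapa1 and Hspa4l the largest ratio sat on 1 probe set while at least 1 other probe set of the gene had ratios near or below 0. The same held for Parp14, an ADP-ribosyltransferase (0.76 and 1.55 on 1432548_at, -0.91 and 0.07 on the brighter 1451564_at), and for Ino80d, a subunit of the INO80 chromatin remodeller (1.41 and 0.81 on 1439180_at, -0.84 and 0.21 on 1434841_at). Nt5c, a nucleotidase of the cytosol with a single kept probe set, had 0.74 and 1.91. Zfat, a zinc finger protein, differed in that both of its probe sets had positive ratios in both pairs, 1.94 and 1.36 on 1443774_at and 1.49 and 0.53 on 1443775_x_at. The control mean of 1443774_at, 4.71, was also in the dimmest 10%. Pml, which builds nuclear bodies, had 1.06 and 1.10 on the dim probe set 1459137_at.

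The remaining genes with the smallest p on the IRP2 side were mostly dim or differed between probe sets. Rbm25, a splicing factor, had 1.83 and 0.70 on 1425522_at, its dimmest probe set, and -2.18 and 0.14 on 1428908_at. The cornified envelope gene Lce1d had 1.46 and 0.71, and the uncharacterised 2700012I20Rik and 1700029F12Rik had 0.83 and 1.89, and 1.09 and 0.90. Rbm25 1425522_at, 2700012I20Rik and 1700029F12Rik reached the array median only with IRP2. Neither they nor Lce1d were called in the other tissues (limma adjusted p 0.285 to 0.835).

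The mRNAs recovered from the other 4 tissues, which have their own controls, were set beside those of bone marrow. There the fit called 670 probe sets higher with IRP2 (2.64%) and 181 lower (0.714%). The 17 probe sets at least 2-fold higher in both bone marrow pairs include those that passed the filter only through IRP2 arrays. Of these 17, 16 were among the 670 (94.1% of the 17 and 2.39% of the 670), the exception being 1442965_at, which has no symbol. Pair 2 alone shared 46 of its 113 with them (40.7%, and 6.87% of the 670), and pair 1 alone 31 of its 232 (13.4%, and 4.63%). On the control side, 13 of the 2380 of pair 1 (0.546%) and 2 of the 103 of pair 2 (1.94%) were among the 181.

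Within the 670 the pairs differed. Pair 2 was above 0 in 560 (83.6%, against 57% of all probe sets) with a median of 0.31, and pair 1 in 361 (53.9%, against 43%) with a median of 0.06. The mean of the other tissues had a median of 0.36 over the same probe sets. Both pairs were above 0 in 301 (44.9%, against 23.5%).

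Of the 54 probe sets of 37 genes that were at least 2-fold higher elsewhere, 53 were above 0 in pair 2, 43 in pair 1 and 42 in both. Their medians were 0.51 in pair 1, 1.07 in pair 2 and 1.34 in the other tissues. With quantile normalisation the medians were 0.82 and 1.06. The exception in pair 2 was Cxcl16 1418718_at. In pair 1 the lowest was Trp53inp2, a regulator of autophagy, at -1.15, with 0.28 in pair 2.

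Several mRNAs of that group are ones that marrow cells use, or are read by more than 1 probe set. Csf2rb, the shared beta chain of the GM-CSF, interleukin-3 and interleukin-5 receptors, measured 9.72 and 9.15 with IRP2 and 9.36 and 7.72 without. Erg, a transcription factor of blood stem cells, measured 6.99 and 6.32 against 6.24 and 5.29. Both Cct7 probe sets, for a subunit of the chaperonin that folds actin and tubulin, were positive in both pairs (0.21 and 0.99, 0.49 and 1.00), as were both of Dhx9, an RNA helicase (0.25 and 0.72, 0.43 and 1.03). Both of Chmp2b, which acts in endosomal sorting, had 0.08 and -0.38 in pair 1 and 0.75 and 0.62 in pair 2. These genes were picked after their values were seen.

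**Figure D5:**
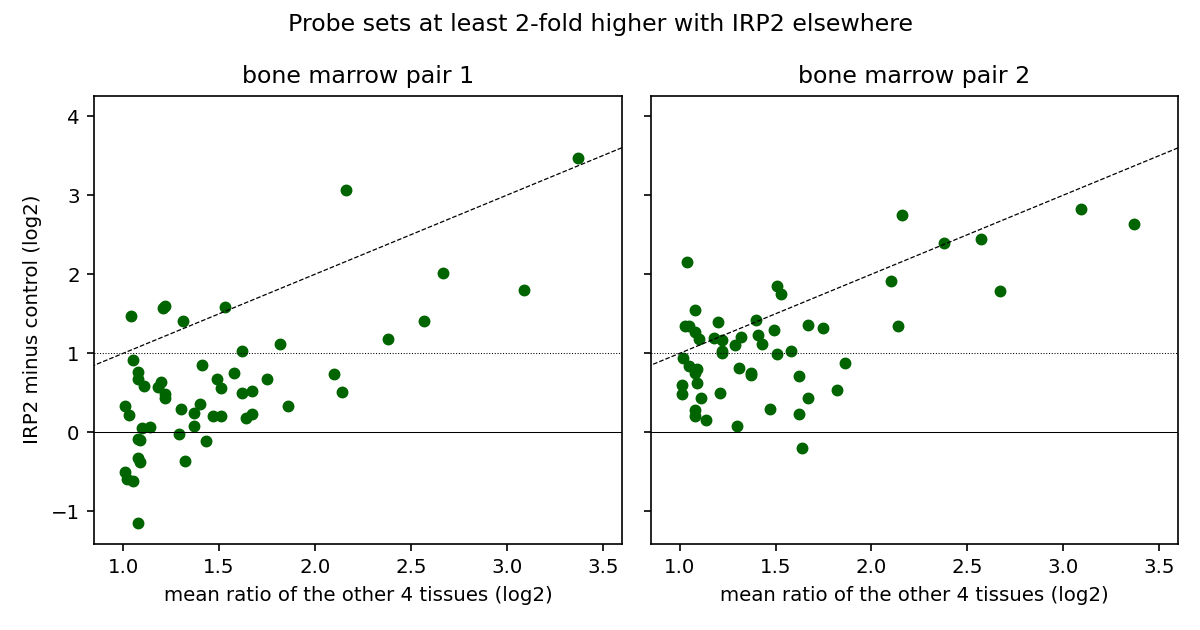
Bone marrow log2 ratio (vertical axis) of pair 1 (left) and pair 2 (right) against the mean log2 ratio of the other 4 tissues (horizontal axis) for 54 probe sets at least 2-fold higher there. The dashed line marks equal ratios and the dotted line 2-fold. Pair 2 has 53 of 54 above 0 and pair 1 has 43.

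By tissue, the bone marrow ratios were nearest to those of spleen. Over 25354 probe sets the Pearson correlation with the mean spleen ratio was 0.23 for pair 1 and 0.26 for pair 2, with liver 0.21 and 0.14, and with brain 0.15 and 0.13. With duodenum it was -0.22 for pair 1 and 0.17 for pair 2. Probe sets are not independent, and the arrays share a platform and a protocol.

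No probe set was called for a difference between the bone marrow ratio and the mean ratio of the other 4 tissues (0 in each direction, 0%, and 151 above and 702 below at unadjusted p under 0.05). Together the 151 and 702 were also a smaller share of all probe sets than 0.05. The widest gaps on the lower side included IRE mRNAs, mRNAs enriched elsewhere and mRNAs with ratios near 0 elsewhere. Of the last kind were Eif2b5 (-1.45 ± 0.35 SE), Polb 1434229_a_at (-1.56 ± 0.38) and Zfand3 1426998_at (-1.49 ± 0.38). Their mean ratios in the other tissues were -0.06, -0.04 and 0.16. Epas1 was 1.47 ± 0.38 (SE) lower in bone marrow, Cxcl16 1418718_at 1.65 ± 0.39 lower and Arfip2, an adaptor of Arf GTPases, 1.34 ± 0.34 lower, each with a limma adjusted p of 1. With equal tissue weights the difference passed for these 3 (limma adjusted p 0.0374, 0.0341 and 0.0341), and that fit called 1 probe set above (0.00394%) and 6 below (0.0237%). Its SE for Epas1 was only 0.20, since equal weights understate the spread of bone marrow. Hmces, a guard of abasic DNA sites, was among the 6, with ratios of 0.50 and 0.23 in bone marrow against 1.62 elsewhere. Slc40a1 1448566_at lay 1.25 ± 0.35 lower and Tfrc 1452661_at 1.22 ± 0.36 lower, while Tfrc 1422966_a_at differed by 0.31 ± 0.61, well within its error. Egr2, a myeloid transcription factor, and Fam98b had bone marrow means of 0.83 and 1.00 beside 1.82 and 1.75.

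On the upper side the genes with the smallest p had ratios near 0 elsewhere. Lao1, an amino acid oxidase, had 1.25 and 0.79 in bone marrow and -0.02 in the other tissues. Rusc2 had 0.78 and 1.19 on 1426792_s_at and 0.00 elsewhere, and its second probe set had 0.49 and -0.05. Taok2, a stress kinase, Apba2, a neuronal adaptor, Cyp21a1, a steroid hydroxylase, and Gm6943 had bone marrow means of 0.86 to 0.99, each with a limma adjusted p of 1 for the difference. Taok2, Apba2 and Cyp21a1 had control means of 4.30 to 4.82, also in the dimmest 10%, and reached the array median only with IRP2. The brighter probe sets of Taok2 (0.14 and -0.06) and Cyp21a1 (0.70 and 0.04) had smaller ratios. The Apba2 arrays overlapped between the reactions.

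The lowest ratios with the same sign in both pairs belonged to a mixed group of genes. Eif2b5, the catalytic subunit of the exchange factor that recharges translation initiation, measured 4.87 and 5.02 with IRP2 and 6.79 and 6.12 in the controls. Both IRP2 arrays were below both controls, and the mean ratio was -1.51 ± 0.34 (SE, limma adjusted p = 0.598). Polb, a DNA repair polymerase, had -2.36 and -0.84 on 1434229_a_at, the dimmest of its 3 probe sets, and -0.77 and 0.19 on the brightest. Zfand3 had -1.83 and -0.83 on 1426998_at and 4 brighter probe sets between -0.29 and 0.63. Atp5c1, the central stalk of ATP synthase, had -1.37 and -0.82 on 1438809_at and -1.48 and 0.43 on the brighter 1416058_s_at.

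In the others the gap was mainly one of pair 1. Eif3m, a translation initiation factor, had -2.52 and -0.26, Suco -2.24 and -0.34, and Taf1, the largest subunit of the TFIID complex, -2.08 and -0.45. Erap1, which trims peptides for antigen presentation, had -1.66 and -0.61, Lnpk, which stabilises junctions of the endoplasmic reticulum, -1.57 and -0.72, and the ubiquitin ligase Trim23 -1.50 and -0.79. Brighter probe sets of Suco (-0.50 and 0.11), Lnpk (-0.20 and 0.12) and Trim23 (-0.45 and 0.22) had smaller ratios whose sign differed between the pairs. The brighter one of Erap1 had -0.72 and -0.27. In the other tissues the mean ratio of the 10 lowest genes had an adjusted p of 0.0886 or more.

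Each pair also had extremes that the other did not share. In pair 1 the lowest was Dld, a subunit of the pyruvate dehydrogenase complex, which measured 3.72 with IRP2 and 6.75 in its control, against 5.55 and 5.48 in pair 2. The next were Atp6ap2, a subunit of the proton pump of lysosomes (-2.67), Papola, the poly(A) polymerase (-2.66), Pdia3, a folding enzyme of the endoplasmic reticulum (-2.58), and Trim37 (-2.57). Their pair 2 ratios were -0.05, -0.08, 0.92 and -0.32. Papola had 3 and Trim37 had 4 further probe sets, and these had pair 1 ratios between -0.35 and 0.36. The brighter Atp6ap2 probe sets 1437688_x_at and 1439456_x_at had -0.51 and -0.56 in pair 1, and the brighter Pdia3 1445330_at had 0.34. Ldlrad4, at 1.91 in pair 1, had 0.23 in pair 2.

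In pair 2 the lowest was Klf15, a metabolic transcription factor, at 7.01 on control replicate 2 and 4.95 with IRP2. Control replicate 2 alone was high there, since the others measured 5.11 and 5.51. Prl2b1 (-1.79), the hair cell channel gene Tmc1 (-1.50) and Slc9a3r2 1439368_a_at (-1.47) came next, each with control replicate 2 as the highest array and with pair 1 ratios of -0.16, 0.51 and 1.14. Sema3a, a guidance cue, was low in both pairs (-0.87 and -1.34).

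Genes of iron handling that carry no canonical IRE had small ratios in pair 2 and mostly negative ones in pair 1. Of 24 listed, 18 were measured and 0 were called in either direction. Their median ratio was -0.62 in pair 1 and 0.03 in pair 2, and the range in pair 2 was only -0.31 to 0.13. Over all probe sets the pair 1 median was -0.10. With quantile normalisation the medians of this list were -0.28 and -0.05, beside 0.05 and 0.00 over all. Control replicate 1 was the highest of the 4 arrays in 15 of the 18, against 48.5% of all probe sets. Both IRP2 arrays were below both controls in 4 of the 18, against 12% of all. Slc25a37, the mitochondrial iron importer of red cell precursors, had -0.81 and 0.11, Glrx5, which hands on iron-sulfur clusters, -0.84 and 0.03, and Tfr2, a transferrin sensor, -0.20 and 0.12. Ireb2, the gene of IRP2 itself, measured 5.99 and 7.30 with IRP2 and 8.27 and 7.52 without, and Ncoa4, the receptor that sends ferritin to degradation, had -1.76 and 0.10.

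The other enzymes of heme synthesis, Alas1 included, had ratios unlike those of Alas2. All 7 measured had pair 1 ratios below 0 (-1.37 to -0.02) and pair 2 ratios between -0.18 and 0.36, with medians of -0.82 and 0.15, and 0 were called. The 6 that act behind the first step ran from -1.29 to -0.02 in pair 1 and from 0.01 to 0.36 in pair 2. Fech, which inserts iron into the ring, measured 10.97 and 11.20 with IRP2 and 12.05 and 11.06 without. Urod had -0.79 and 0.15, and Alas1, the form of the first enzyme used outside red cells, -1.37 and -0.18, where Alas2 had 0.52 and 1.36. As deposited, Alas2 was likewise the only one of 7 erythroid markers with both pairs above 0. Slc4a1, the anion exchanger of the red cell membrane, had -0.48 and 0.19 and Klf1, the erythroid master regulator, -1.15 and 0.08. The erythroid medians were -0.58 and 0.21. With quantile normalisation they were -0.17 and 0.06, and those of the 7 heme enzymes -0.29 and 0.00. On that scale the erythroid markers Slc4a1 (0.07 and 0.06) and Rhag (0.04 and 0.09) also had both pairs above 0. So did the heme enzymes Cpox (0.38 and 0.26) and Ppox (0.18 and 0.27), where Alas2 had 1.01 and 1.17.

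The 45 ribosomal protein mRNAs had medians of -0.71 and 0.14 (0 called), and Rps29 measured 12.79 and 12.49 with IRP2 against 13.45 and 12.40. With quantile normalisation these medians were -0.19 and 0.00. Of 4 measured mRNAs in which IRP binding has been described outside the IRE list, 0 were called. Pfn2, an actin regulator, had 0.31 and 0.56 with both IRP2 arrays above both controls, while App, the amyloid precursor, had -0.40 and 0.46 and Cdc42bpa had 0.36 and -0.59. Immediate early genes (14 measured, 0 called) had medians of -0.26 and 0.09, and 4 histone mRNAs had 0.01 and 0.03.

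Marker lists of marrow cells gave no called gene in either direction. Neutrophil markers had median ratios of -0.86 and 0.11, granulocyte precursors -0.60 and -0.04, B-cell precursors -0.41 and 0.10, megakaryocytes -0.59 and 0.04, stem and progenitor cells -0.67 and 0.07, and plasma cells -0.70 and 0.26. With quantile normalisation the pair 1 medians were -0.34 for neutrophils, -0.11 for granulocyte precursors, 0.04 for B-cell precursors, -0.08 for megakaryocytes, -0.49 for stem and progenitor cells and -0.19 for plasma cells. On that scale they were 0.36 for T cells, 0.23 for mature B cells and 0.13 for red pulp macrophages. T cells (0.01 and 0.04), mature B cells (-0.14 and -0.05) and red pulp macrophages (-0.02 and 0.17) were near 0 in both pairs as deposited.

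The mRNA starts were also searched for letters of the IRE, to see whether any gene with such letters stood out. The hairpin has a loop that begins CAGTG in DNA letters, a paired stem and an unpaired C before it; searched were a C, 5 bases, the letters CAGTG, 1 further base and 5 bases that pair with the first 5, with G-T (G-U in RNA) wobble pairs allowed. The first 50 bases behind the RefSeq start of 32851 transcript windows (27025 genes, build GRCm38.p6) were read on the gene's strand. The loop letters alone were in 2366 windows (7.2%) and the whole pattern in 2 (0.00609%). Both matches are shown, since they are the sequences the search found, with the loop letters in capitals, and neither overlaps another match. Aunip, at chr4:134511017-134511033 on the plus strand, and Vti1b, at chr12:79172412-79172428 on the minus strand, read
Aunip: ctcctgCAGTGgcggga
Vti1b: cggctgCAGTGatggct

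Of the 5 stem pairs 1 was a wobble pair in Aunip and 3 in Vti1b. Neither gene stood out in bone marrow. Aunip, which acts in DNA repair, measured 5.57 and 5.47 with IRP2 and 5.73 and 5.35 without (ratios -0.16 and 0.12). Vti1b, a SNARE of endosomes, measured 8.36 and 8.38 against 9.0 and 8.22 (ratios -0.63 and 0.15). The arrays overlapped for both. Of the 8 IRE mRNAs, 4 had a window (Tfrc, Fth1, Ftl1 and Alas2) and none matched in these 50 bases. Hairpins farther along the mRNA, or at its other end as in Tfrc, are outside the window.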

How the data were processed

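RNA from 4 bone marrow pulldowns was read on Affymetrix Mouse Genome 430 2.0 arrays, and the other 16 arrays of the series entered the fit. The deposited values are log2 probe set levels. Per the labels' protocols the authors computed them with RMA, or with MAS5 in GCOS followed by quantile normalisation, and which of these was deposited stays unknown. Array medians were 5.47 to 5.55 and SDs 1.86 to 2.13, so the 4 distributions are not identical. No scanner intensity or background was used. Probe sets were named through the platform annotation, with 34754 of 34958 single symbols matched to RefSeq.

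R 4.3.3 with limma 3.58.1 fitted tissue by reaction, with tissue by replicate number as a block and arrayWeights by tissue, then eBayes and Benjamini-Hochberg over 25354 probe sets (residual df 5). The labels say that controls ran in parallel. Deviations of same-numbered bone marrow arrays from their group means correlated at 0.258. The fit was tested on simulated data whose planted differences were larger than any mean ratio seen here, and without a single outlying control array. That test cannot tell how many smaller differences the fit would miss in these data. The members and gene lists were chosen with earlier results of these data known. Named genes were all single-symbol probe sets of IRE mRNAs, the 15 highest and 10 lowest by p with both pairs of one sign, the 10 above and 5 below the other tissues, the 5 extremes of each pair, and up to 4 members per list by level. Alternatives were no block, equal weights, bone marrow alone, other filters and scalings, and leaving out arrays.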

Additional observations from a re-analysis of the deposited data

Results flagged for a closer look

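Epas1 1435436_at went the opposite way in bone marrow and in the other tissues: both bone marrow pairs were below 0 and all 8 pairs of the other 4 tissues above 0. The difference between the bone marrow ratio and the mean of the others was -1.47 on the log2 scale (limma adjusted p = 1), so it did not pass the correction over 25354 probe sets. Over all kept probe sets 90 (0.355%) had opposite signs in this sense.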

How the results depend on the processing

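With no replicate block limma called 0 probe sets higher and 0 lower in bone marrow, as with the block. At an unadjusted p under 0.05 limma then had 96 and 400, together again a smaller share of all probe sets than 0.05. With the replicate block and equal tissue weights, which understate the spread of bone marrow, it called 92 higher and 78 lower. For the difference from the other tissues limma then called 1 above and 6 below. With the block on the 4 arrays alone it called 5 higher, without the filter on dim probe sets 3 (Elf2, Cxcl16 and 1418364_a_at), and with quantile normalisation 1 (Fth1). Leaving out arrays gave 0 to 2 higher and 0 to 11 lower, and 0 to 4 below the other tissues. Without control replicate 1 (no block) the 2 were Fth1 (2.33 ± 0.31 SE) and Lrpap1 (2.30 ± 0.33). Without control replicate 2 there were 1 higher (Cxcl16) and 11 lower, among them Olr1 (-2.25) and Mcpt8 (-2.19). In such fits the lone array is assumed to vary like the others. At 1.5-fold pair 1 had 1860 higher and 6039 lower, pair 2 had 925 and 744, and both pairs 159 and 93. On centred arrays pair 1 had 148 higher and both pairs 3 lower; with quantile normalisation pair 1 had 389 and 1158, and both pairs 28 and 4. Centring moved the pair 1 median from -0.10 to -0.18, and quantile normalisation to 0.05. Over the 58 named probe sets and 14 alternatives, 14 values changed sign. Of these, 9 belonged to probe sets with a mean ratio smaller than its SE (Slc11a2 1417584_at, Cxcl16 1418718_at and Slc9a3r2 1439368_a_at). The other 5 were Dld to 0.08 and Pdia3 to 0.92 without replicate 1 (-3.04 and -2.58 without replicate 2), Pdia3 to 0.43 with no block and without control replicate 1, and Tmc1 to 0.51 without replicate 2 (-1.50 without replicate 1) and 0.26 with no block and without control replicate 2. Each is the value of the remaining pair or control. Nothing in the files gives signal over background, which limits what can be said of dim probe sets.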

Other observations

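When control replicate 2 was left out and the replicate block dropped, control replicate 1 was the sole control and limma called 11 probe sets lower with IRP2. They included Mcpt8, a protease of basophils (-2.19 ± 0.32 SE, adjusted p = 0.0196), Olr1, a receptor for oxidised LDL (-2.25 ± 0.31, adjusted p = 0.0181), and the small GTPases Rab24 (-2.06) and Rab32 (-1.96). These genes were named after their values were seen. None of the 11 was called with both controls and tissue weights in the fit.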
